A study of Rattus norvegicus with 12 samples.

Results

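Podocytes are the epithelial cells that wrap the glomerular capillaries of the kidney, and this account follows 8 of their genes in rat kidney cortex: Nphs1, Cd2ap, Podxl, Ptpro, Synpo, Actn4, Wt1 and Dach1. Their members on the array were all probe sets whose annotation names one of these genes alone, which gave 14 probe sets of 31042. All rats were male littermates, and their cortex was compared in 4 groups of 3 arrays each. The 10-week diabetic rats had received streptozocin, which destroys pancreatic beta cells, as an intravenous dose of 65 mg/kg at 4 weeks of age, and the 20-week diabetic rats the same dose at 14 weeks. Their nondiabetic counterparts were injected with vehicle at the same ages. Pellets followed after 3 days and held insulin palmitate in diabetic rats and the palmitate vehicle in nondiabetic rats. Glucose was held at 350 to 450 mg/dl for 6 weeks in diabetic rats. Streptozocin and high glucose came together in every diabetic rat, and insulin is named for each diabetic pellet, with 1 label unclear, so their parts in a difference cannot be told apart. Puberty falls between the earlier and the later injection, which is the contrast the study was named for.

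Podocytes send out interlocking foot processes, and the gaps between these are bridged by the slit diaphragm, a sheet of adhesion proteins that acts as part of the blood filter. Nephrin (Nphs1) is the main adhesion protein of the slit, and CD2-associated protein (Cd2ap) links it to the actin cytoskeleton. Podocalyxin (Podxl) is the negatively charged sialomucin of the apical surface, and Ptpro is a receptor tyrosine phosphatase of the same surface, also named GLEPP1. Synaptopodin (Synpo) and alpha-actinin-4 (Actn4) organise the actin of the foot processes. Wt1 is the zinc finger transcription factor that maintains podocyte identity, and Dach1 is a transcriptional regulator expressed in adult podocytes. Cd2ap and Actn4 are also made in many other cells, and Dach1 in some tubule cells, so their cortex signal is not podocyte signal alone. For Podxl and the rest, whole-cortex arrays do not show that the signal is podocyte signal alone.

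Each gene had at least 1 probe set bright enough to test. Of the 14 probe sets, 9 were tested. The other 5 were dim, with signals between 3.49 and 189: 1369154_at for Nphs1, 1369695_at for Wt1, 1385823_s_at and 1387933_s_at for Podxl, and 1387501_at for Synpo. Synpo had 2 tested probe sets and the other genes 1 each, and the brightest stands for its gene below. Signals are the authors' scaled array intensities. Differences are on the log2 scale (diabetic minus nondiabetic), with the standard error (SE) of a limma fit over all 12 arrays and a p adjusted by the Benjamini-Hochberg method over all 18625 probe sets tested. A difference was called at an adjusted p under 0.05. Levels of different genes cannot be set against each other, since probe sets differ in brightness.

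Arrays had median signals between 121 and 139 and correlated with each other at 0.907 to 0.928. The label of 10-week diabetic replicate 1 adds the word vehicle to its insulin palmitate pellet, unlike the other diabetic labels, so whether that pellet held insulin is unclear. The Gapdh 3'/5' signal ratio, which rises as RNA degrades, was 1.41 to 1.5 on the arrays of 10 weeks. At 20 weeks it was 1.42 to 2.09 in nondiabetic and 1.6 to 1.75 in diabetic rats, and nondiabetic replicate 1 had the highest value. The beta-actin 3'/5' ratio was higher on every array, at 6.3 to 8.57 at 10 weeks and 6.87 to 11.4 at 20 weeks. It was highest on diabetic replicate 2 (11.4), nondiabetic replicate 1 (11.2) and diabetic replicate 3 (10.0) of 20 weeks. The diabetes differences are given with and without 10-week diabetic replicate 1 and 20-week nondiabetic replicate 1, the doubted arrays below. Diabetic replicates 2 and 3 of 20 weeks were left out only one at a time. Proximal tubule transcripts were bright, with summed signals of 195257 to 228498 over 15 marker genes. No list of medulla genes was examined, so that the tissue was cortex rests on the labels. Nphs1 signals were 330 to 634 over the 12 arrays on its brightest probe set and 8.11 to 74.0 on its dim one. No detection calls were at hand, so the presence of podocyte RNA on each array was not tested. In RNA from whole cortex, fewer podocytes and less RNA per podocyte cannot be told apart.

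The promoters of 6 of the 8 genes had an entry in the RefSeq table (GRCr8), 250 bases before to 50 after the gene start. Those of Nphs1, which had the lowest adjusted p of the 8 genes, of Ptpro, which also fell, and of Cd2ap, whose signals lay the other way at 20 weeks, are shown to compare genes of unlike behaviour. They lie at chr1:94848011-94848310 (plus strand), chr4:171895261-171895560 (plus strand) and chr9:25583725-25584024 (plus strand). Capitals mark matches to GTGGGNG (a WT1-type core), GGGCGG (the GC box, bound by SP1) and CANNTG (the E-box, bound by TCF21 and other basic helix-loop-helix factors), on either strand.
Nphs1: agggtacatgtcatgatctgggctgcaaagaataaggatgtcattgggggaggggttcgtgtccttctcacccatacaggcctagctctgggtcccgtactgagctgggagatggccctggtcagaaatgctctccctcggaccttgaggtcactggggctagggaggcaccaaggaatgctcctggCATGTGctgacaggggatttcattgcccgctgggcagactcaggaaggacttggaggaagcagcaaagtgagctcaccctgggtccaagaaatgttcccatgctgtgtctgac
Ptpro: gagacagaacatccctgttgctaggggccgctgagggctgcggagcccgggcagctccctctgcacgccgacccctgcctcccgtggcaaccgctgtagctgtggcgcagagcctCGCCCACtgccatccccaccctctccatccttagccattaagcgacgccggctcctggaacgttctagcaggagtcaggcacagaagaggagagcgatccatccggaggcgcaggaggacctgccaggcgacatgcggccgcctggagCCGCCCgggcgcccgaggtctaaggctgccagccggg
Cd2ap: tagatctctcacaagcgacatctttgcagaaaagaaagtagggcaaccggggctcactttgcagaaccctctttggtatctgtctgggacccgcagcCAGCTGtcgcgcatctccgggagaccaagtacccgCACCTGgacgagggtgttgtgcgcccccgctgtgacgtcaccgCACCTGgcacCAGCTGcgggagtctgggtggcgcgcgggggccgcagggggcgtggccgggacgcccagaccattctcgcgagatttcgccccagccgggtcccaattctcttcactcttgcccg
The Nphs1 window held 1 E-box, and the Cd2ap window held 4. The Ptpro window held 1 GTGGGNG match and 1 GC box, and no E-box. Of the 6 promoters, GTGGGNG was found in 1 (Ptpro), against 28.8% of 33469 rat promoters of the same length. GGGCGG was found in 3 (Podxl, Ptpro and Synpo), against 33.1%, and it can share bases with GTGGGNG. The E-box CANNTG was found in 3 (Nphs1, Wt1 and Cd2ap), against 72.1%. TAATTA, a homeodomain core, was found in 0 of 6, against 5.36%. The windows were GC-rich, from 56.3% in Nphs1 to 74.7% in Podxl, where the median promoter had 51.7%. Dach1 and Actn4 were not searched. No motif searched for was common to Nphs1 and Ptpro or to the 6 promoters. A match is a description of the letters only.

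Over both ages together, 3 of the 8 genes fell in diabetic cortex: Nphs1, Ptpro and Dach1. Nphs1 was 28.3% lower, Ptpro 24.2% and Dach1 22%. None of the 9 tested probe sets rose, where 2.14% of all tested did. The called share was 3 of 9, where 2.34% of all tested probe sets were called lower and 4.47% called either way. An unadjusted p under 0.05 was reached by 6 of the 9, against 17.9% of all. The median difference of the 8 genes was -0.28, beside -0.01 for all probe sets tested, and 6 of the 8 lay below 0, where 52.4% of all probe sets did.

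Nphs1, the nephrin gene, had signals of 591, 634 and 570 in nondiabetic and 378, 483 and 504 in diabetic rats at 10 weeks. At 20 weeks they were 507, 582 and 452 against 330, 371 and 343. Every diabetic array lay below every nondiabetic array of its age. The group means were 598 ± 32.4 (SD, n = 3) in nondiabetic and 455 ± 67.6 in diabetic rats at 10 weeks, then 514 ± 65.2 and 348 ± 20.7 at 20 weeks. From the highest group to the lowest, the order was 10-week nondiabetic, 20-week nondiabetic, 10-week diabetic and 20-week diabetic. The first 3 of these overlapped with their neighbours, and the arrays of the last lay below all others. The mean diabetes difference was -0.48 ± 0.10 (95% interval -0.69 to -0.27, adjusted p = 0.0157). The call was kept when any single array was left out (adjusted p 0.0147 to 0.043) and lost when both doubted arrays were (-0.42, adjusted p = 0.0556). It was also lost when the dim second probe set was averaged in (-0.39, adjusted p = 0.481).

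Cd2ap, the adaptor that ties nephrin to actin, did not follow Nphs1. Its signals at 10 weeks were 3806, 3774 and 4255 in nondiabetic and 3854, 3750 and 3807 in diabetic rats, and the groups overlapped. At 20 weeks they were 3132, 3744 and 3843 against 4661, 4308 and 4356, and every diabetic array was above every nondiabetic one. The difference was -0.05 ± 0.09 at 10 weeks (adjusted p = 0.879) and 0.32 ± 0.09 at 20 weeks (95% interval 0.13 to 0.51, adjusted p = 0.0736). With the Gapdh 3'/5' ratio as a covariate the 20-week difference passed (0.33, adjusted p = 0.0298). Without 20-week nondiabetic replicate 1, which had the highest ratio and the lowest Cd2ap signal, it was 0.23 (adjusted p = 0.167), and with median centring 0.29 (adjusted p = 0.2). Over both ages it was 0.13 ± 0.06 (adjusted p = 0.273).

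Ptpro, the apical phosphatase, had 744, 820 and 854 in nondiabetic and 497, 644 and 629 in diabetic rats at 10 weeks. The 20-week signals were 573, 648 and 581 against 411, 474 and 544. Diabetic arrays were the lower ones at both ages, without overlap. The group means were 806 ± 56.2 and 590 ± 80.9 at 10 weeks, then 601 ± 41.3 and 476 ± 66.1 at 20 weeks (SD, n = 3), so nondiabetic rats at 20 weeks had about the level of diabetic rats at 10 weeks. The mean diabetes difference was -0.40 ± 0.10 (95% interval -0.61 to -0.19, adjusted p = 0.0339). The call was lost (adjusted p up to 0.0769) without replicate 2 or 3 of the 10-week nondiabetic group, replicate 1 of the 10-week diabetic group, replicate 2 or 3 of the 20-week nondiabetic group, or replicate 1 or 2 of the 20-week diabetic group. It was also lost with arrays centred on their medians (adjusted p = 0.0704), with no intensity trend (adjusted p = 0.0603) and when both doubted arrays were left out (-0.36, adjusted p = 0.0927).

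Podxl, the sialomucin of the same surface, had 1965, 1800 and 1887 against 1635, 1876 and 1696 at 10 weeks, where the groups overlapped. At 20 weeks it had 1962, 1818 and 1629 in nondiabetic and 1412, 1442 and 1543 in diabetic rats, with no overlap. The difference was -0.12 ± 0.09 at 10 weeks (adjusted p = 0.676), -0.30 ± 0.09 at 20 weeks (adjusted p = 0.111) and -0.21 ± 0.06 over both (adjusted p = 0.0937). None of these passed.

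Of the actin organisers, neither was called. Synpo had 2168, 3013 and 2772 in nondiabetic and 1858, 2644 and 2631 in diabetic rats at 10 weeks, a wide spread within both groups. At 20 weeks it had 2401, 2248 and 2384 against 2040, 1884 and 2166, and the groups did not overlap. Its difference over both ages was -0.19 ± 0.10 (adjusted p = 0.376), and that of its dimmer probe set -0.24 ± 0.20 (adjusted p = 0.594). Without 10-week diabetic replicate 1 the first of these was -0.10 (adjusted p = 0.625). Actn4 ranged from 2009 to 3688 in nondiabetic and from 2203 to 3715 in diabetic rats, and the groups overlapped at both ages. Its difference was 0.06 ± 0.18 (95% interval -0.34 to 0.45, adjusted p = 0.914), an interval that takes in the value of Podxl (-0.21) as well as 0.

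Of the transcriptional regulators, Dach1 fell and Wt1 did not pass. Dach1 had 2442, 2260 and 1885 against 1522, 1875 and 1488 at 10 weeks, and 1979, 1837 and 1524 against 1484, 1382 and 1488 at 20 weeks. The diabetic arrays were lower at both ages, with the nearest pair 1885 and 1875 at 10 weeks. The mean difference was -0.36 ± 0.09 (95% interval -0.55 to -0.17, adjusted p = 0.0406), the nearest to the threshold of the 3 called. It was lost (adjusted p up to 0.097) without any one array except replicate 3 of the 10-week nondiabetic, replicate 2 of the 10-week diabetic and replicate 3 of the 20-week nondiabetic group. It was lost too with median centring (0.0821), no intensity trend (0.0915), no filter on dim probe sets (0.0529) and both doubted arrays left out (-0.30, adjusted p = 0.161).

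Wt1 had 503, 439 and 583 against 314, 475 and 481 at 10 weeks, where the groups overlapped. At 20 weeks it had 557, 506 and 480 against 347, 341 and 434, and did not overlap. Its difference of -0.37 ± 0.13 over both ages (95% interval -0.65 to -0.10) was as large as that of Dach1, with a wider error (adjusted p = 0.13). Without 10-week diabetic replicate 1 its 10-week difference went from -0.28 ± 0.18 to -0.08.

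**Figure D1:**
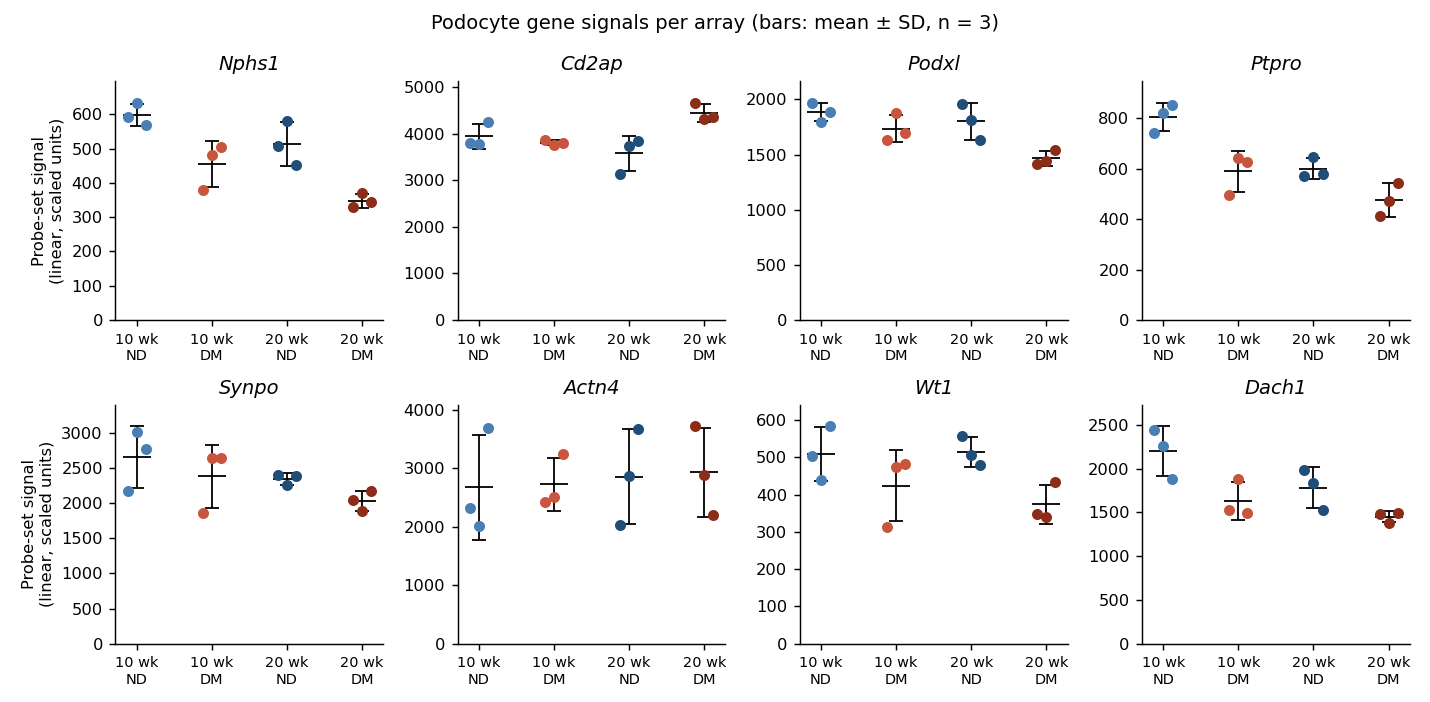
Array signals (vertical axes, authors' scaled intensity) of the brightest probe set of each of the 8 genes in the 4 groups, with 1 point per array and bars for the group mean ± SD (n = 3). The diabetic points of Nphs1, Ptpro and Dach1 lie below the nondiabetic points at each age, while those of Cd2ap lie above them at 20 weeks and those of Actn4 overlap.

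At each age alone no probe set of these genes was called by limma. At 10 weeks 0 of 9 passed (0.306% of all tested did), with 3 at an unadjusted p under 0.05, against 10.9% of all. The lowest were Ptpro (-0.46 ± 0.14, adjusted p = 0.226), Dach1 (-0.43 ± 0.13, adjusted p = 0.226) and Nphs1 (-0.41 ± 0.14, adjusted p = 0.29). At 20 weeks 0 of 9 passed (2.84% of all tested did, 1.62% lower and 1.22% higher), with 6 at an unadjusted p under 0.05, against 16.8% of all. The lowest was Nphs1 at -0.56 ± 0.14 (adjusted p = 0.0524). It passed with quantile normalization (0.0459), with the dimmest 60% left out (0.0396) and without 10-week diabetic replicate 1 (0.0387). It did not pass in the other alternatives, with an adjusted p of 0.192 when 20-week nondiabetic replicate 2 was left out (-0.46). Wt1 had -0.47 ± 0.18 (adjusted p = 0.207), Ptpro -0.34 ± 0.14 (adjusted p = 0.222) and Dach1 -0.29 ± 0.13 (adjusted p = 0.274).

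The doubted arrays moved several of these values. Without 10-week diabetic replicate 1, the 10-week differences were -0.34 for Ptpro, -0.39 for Dach1, -0.28 for Nphs1, -0.078 for Podxl and 0.006 for Synpo. Without 20-week nondiabetic replicate 1, the 20-week differences were -0.56 for Nphs1, -0.41 for Wt1, -0.21 for Dach1 and -0.23 for Podxl, and that of Actn4 turned from 0.05 to -0.18. With both left out, the differences over both ages of the genes not called were -0.24 for Wt1, -0.155 for Podxl, -0.093 for Synpo, 0.083 for Cd2ap and -0.016 for Actn4.

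The arrays of the groups can also be read without a model. At 10 weeks 3 of the 8 genes (Nphs1, Ptpro and Dach1) had every diabetic array below every nondiabetic array, as did 9.52% of all probe sets tested. None had them above, as 7.47% of all did, and the other 5 overlapped. At 20 weeks 6 of the 8 did, against 10.9% of all probe sets, the additional genes being Wt1, Podxl and Synpo. Cd2ap had every diabetic array above (10.1% of all probe sets), and Actn4 overlapped.

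**Figure D2:**
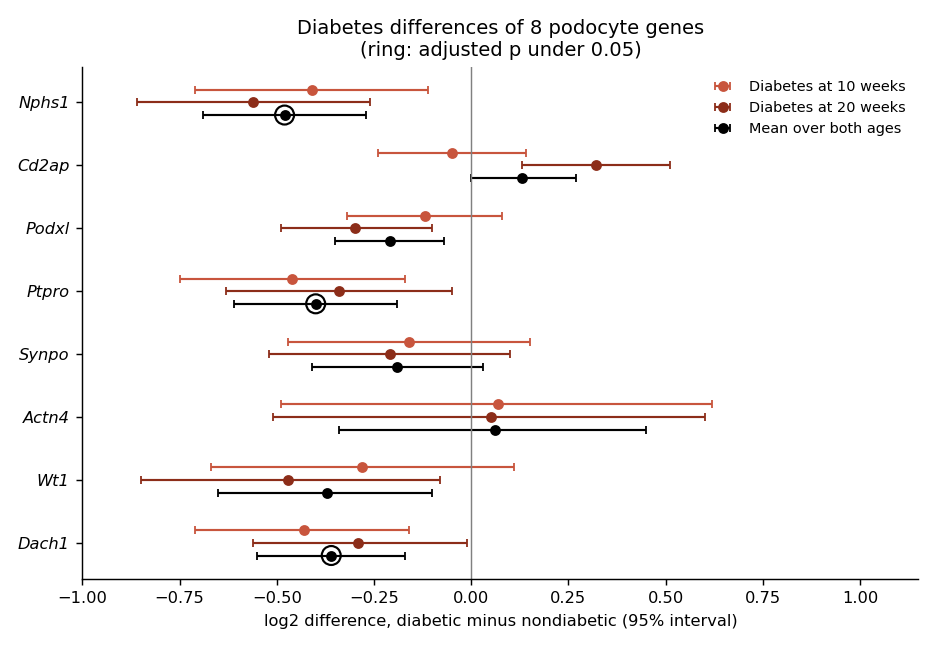
Log2 differences (horizontal axis, diabetic minus nondiabetic) with 95% intervals for the 8 genes at 10 weeks, at 20 weeks and as the mean over both ages; a ring marks an adjusted p under 0.05. Rings stand on the means of Nphs1 (-0.48), Ptpro (-0.40) and Dach1 (-0.36), and no value at a single age has one.

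Whether the diabetes difference depended on age was tested as the interaction, the difference at 10 weeks minus that at 20 weeks. None of the 9 probe sets passed in limma, as was so for all tested (0.0%), and 1 of the 9 had an unadjusted p under 0.05, against 7.95% of all. That one was Cd2ap, at -0.37 ± 0.12 (95% interval -0.63 to -0.10, adjusted p = 0.508). Nphs1 had 0.15 ± 0.20 (95% interval -0.27 to 0.58), Ptpro -0.12 ± 0.19 and Dach1 -0.14 ± 0.18. The interval of Nphs1 spans a larger fall at either age, so the 2 ages were neither shown to differ nor shown to be alike.

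Age in nondiabetic rats (20 minus 10 weeks) shares its nondiabetic arrays with the diabetes comparisons. No probe set of the array passed (0.0% called by limma). Among the 9 there were 2 at an unadjusted p under 0.05, against 8.61% of all. These were Ptpro, at -0.42 ± 0.14 (adjusted p = 0.49), and Dach1, at -0.30 ± 0.13 (adjusted p = 0.56). Nphs1 had -0.23 ± 0.14, Synpo -0.16 ± 0.14, Cd2ap -0.15 ± 0.09 and Podxl -0.07 ± 0.09. Wt1 had 0.02 ± 0.18 and Actn4 0.10 ± 0.26.

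To see whether the genes moved together from array to array, the mean of its own group was taken from each log2 signal, so that the diabetes and age differences were removed. Across the 12 arrays, 19 of the 28 pairs of the 8 genes had deviations correlated above 0 (67.9%), with a median r of 0.12 and a range from -0.68 to 0.84. Over all pairs of tested probe sets 50% were above 0 and the median was 0.0. With arrays centred on their medians, 25 of the 28 were above 0 (median 0.23). The points of such a correlation share arrays and scaling, so these values are descriptions.

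The pairs fell into a pattern by gene. Cd2ap and Actn4 went together at 0.84, the highest pair, and both ran against Dach1 (-0.65 and -0.68) and Podxl (-0.59 and -0.52). The other 6 genes, a subset taken after these values were seen, had 15 of 15 pairs above 0 with a median of 0.45. Their closest pairs were Dach1 with Podxl at 0.74, Ptpro with Wt1 at 0.72, Ptpro with Synpo at 0.67, and Nphs1 with Ptpro and Wt1 with Podxl at 0.65 each.

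One array carried much of this. In 10-week diabetic replicate 1, the array with the unclear pellet label, 7 of the 8 genes lay below their group mean, including all of the 6, whose deviations ran from -0.40 to -0.08 with a median of -0.25. In replicate 2 of that group all of the 6 lay above it, by 0.10 to 0.21. Deviations within a group sum to 0 for each gene, so a low replicate 1 raises the rest of its group. No other array had all of the 6 on one side. Without replicate 1, 12 of the 28 pairs were above 0 (42.9%) with a median of -0.06, and 9 of the 15 pairs with a median of 0.20. Cd2ap with Actn4 stayed at 0.87, Dach1 with Podxl at 0.73 and Wt1 with Podxl at 0.60. Nphs1 with Ptpro went to 0.36, and Nphs1 with Wt1 from 0.45 to -0.21. The Gapdh 3'/5' ratio of 10-week diabetic replicate 1 was 1.44, where replicates 2 and 3 of its group had 1.5 and 1.44. The part of RNA quality in its deviations was not tested.

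**Figure D3:**
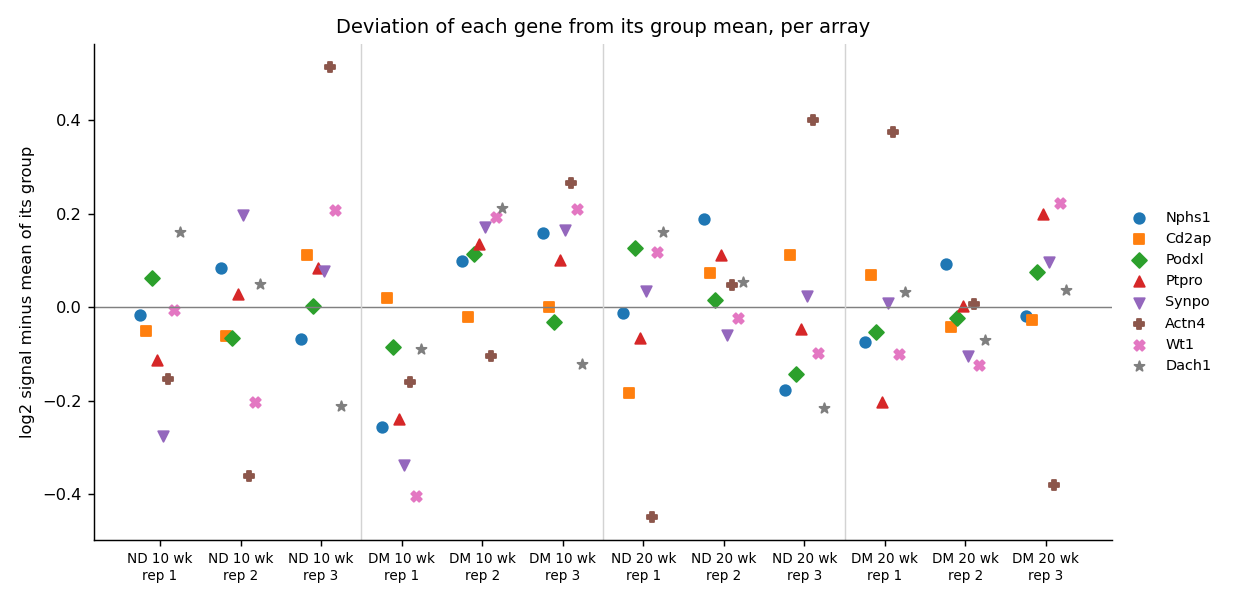
Deviation of each log2 signal from its group mean (vertical axis) on the 12 arrays (horizontal axis), with 1 symbol per gene for the 8 genes. In 10-week diabetic replicate 1 all genes but Cd2ap are below 0, by as much as -0.40 among the 6 genes other than Cd2ap and Actn4; no other array has those 6 all below.

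**Figure D4:**
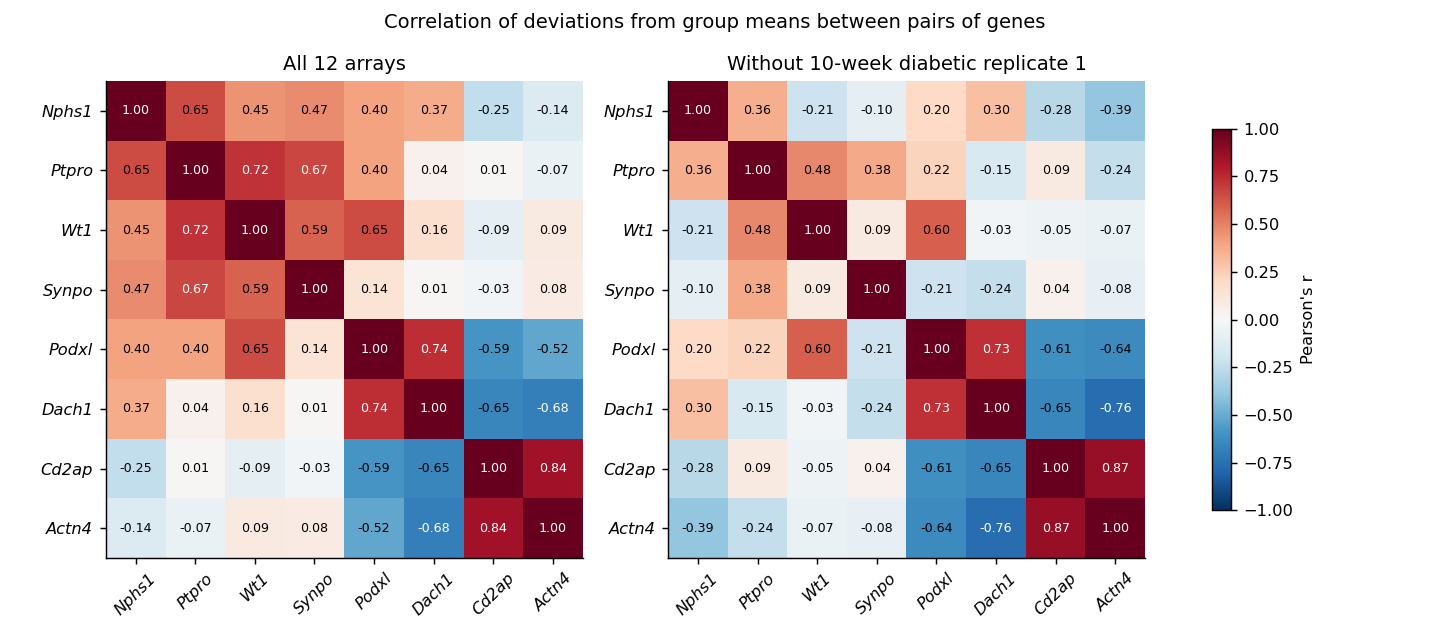
Pearson correlations of the deviations for the 28 pairs of the 8 genes, with the value in each cell, over all 12 arrays (left) and without 10-week diabetic replicate 1 (right). On the left the 6 genes other than Cd2ap and Actn4 have only values above 0 (0.01 to 0.74), and Cd2ap with Actn4 has the highest (0.84); on the right 9 of the 15 values among the 6 stay above 0.

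Among the 10482 other genes whose name is not a numbered locus, those with deviations most like those of Nphs1 were Ralgapb (r = 0.94), Ccl21 (0.92), Dync1h1 (0.91), Ipo11 (0.90), Ephx2 (0.89) and Rac3 (0.89), each over 12 arrays. The nearest of the 8 genes, Ptpro, stood at rank 277 of 10489 (members counted) with 0.65, followed by Synpo at rank 994. Cd2ap was at rank 8430. On log2 signals with the group differences kept, the most alike were Afg1l (0.94), Phactr4 (0.94), Ptpdc1 (0.94), Lims2 (0.93), C8b (0.93) and Micu3 (0.92). There Ptpro stood at rank 14 (0.90), Podxl at 66 (0.86) and Dach1 at 149 (0.82), while Actn4 (-0.19) and Cd2ap (-0.57) lay far down. These correlations include the group differences given above.

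A list of 45 other podocyte genes was set beside the 8, of which 32 had a tested probe set. Over both ages, 2 of the 32 fell and 0 rose, with 5 at an unadjusted p under 0.05 in limma, where 17.9% of all probe sets tested were. Those that fell were Zhx2, a transcriptional repressor linked to podocytes (-0.36 ± 0.07, adjusted p = 0.0165), and Ptgds, a prostaglandin D synthase (-1.23 ± 0.28, adjusted p = 0.0281). The call of Ptgds was lost with no intensity trend (adjusted p = 0.0685) and, at adjusted p up to 0.0685, without replicate 1 or 2 of the 10-week nondiabetic group, replicate 1 or 3 of the 10-week diabetic group, replicate 2 or 3 of the 20-week nondiabetic group, or replicate 1 or 3 of the 20-week diabetic group. That of Zhx2 was kept without any single array and lost with median centring (adjusted p = 0.0624) and without both doubted arrays (0.0528). The median of the list was -0.07, and 21 of the 32 lay below 0, where the median of all probe sets was -0.01 and 52.4% lay below 0. Efnb1, an ephrin ligand of the slit diaphragm, had -0.37 ± 0.10 (adjusted p = 0.0546). Sema3g, a semaphorin secreted by podocytes, had -0.29 ± 0.10 (adjusted p = 0.15), and Tcf21, a transcription factor of podocytes, had -0.28 ± 0.17 (adjusted p = 0.436). The genes given values here all lay below 0, while 11 of the 32 lay above it, up to 0.56, so the list did not fall as a whole. The summed signal of the 32 genes was 41025 to 43076 in nondiabetic and 38686 to 39410 in diabetic rats at 20 weeks, without overlap. At 10 weeks it was 43210 to 45067 against 38816 to 44517, which overlapped. The brightest probe sets weigh most in this sum, and its genes, Tjp1, Myh9 and Vegfa among them, were not shown to be podocyte signal alone. The sum of the 8 genes, in which the bright Cd2ap, Actn4 and Synpo weigh most, overlapped at 20 weeks (13145 to 14558 against 13078 to 14401) and not at 10 weeks (14537 to 16495 against 12474 to 14483). Kirrel3, Trpc6, Pla2r1, Crb2 and Cd80 were too dim to test, and Kirrel1, Kirrel2, Magi2, Lmx1b, Foxd1 and Npnt were among those not analysed here.

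The glomerular basement membrane, which podocytes and endothelium build together, had 1 gene that fell and 1 that rose among 15 tested. Of all probe sets tested, 2.34% were called lower and 2.14% higher. Col4a4, a collagen IV chain of the mature membrane made by podocytes, fell (-0.66 ± 0.16, adjusted p = 0.0319). Nid2, a linker of laminin and collagen, rose (0.27 ± 0.06, adjusted p = 0.0238). Nid1, its paralog, had -0.29 ± 0.08 (adjusted p = 0.0716) on its brightest probe set and 0.08 ± 0.2 (adjusted p = 0.89) on another. The integrin Itga3 had -0.26 ± 0.09 (adjusted p = 0.153). The list's median was -0.02.

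The other cells of the glomerulus gave no called gene in this set of brightest probe sets. For the endothelium 0 of 9 tested genes passed in limma (3 at an unadjusted p under 0.05, against 17.9% of all probe sets tested). The median was 0.00, with 4 genes below 0 and 5 above. Kdr had -0.19 ± 0.08 (adjusted p = 0.198), Emcn -0.17 ± 0.07 (adjusted p = 0.185) and Esam 0.35 ± 0.12 (adjusted p = 0.131). Pecam1 had 0.02 ± 0.12 over both ages (adjusted p = 0.966), but 0.40 ± 0.18 at 10 weeks and -0.36 ± 0.18 at 20 weeks. Its interaction was 0.76 ± 0.25 (adjusted p = 0.508). For the mesangium 0 of 11 passed (3 unadjusted), the median was 0.07, and Pdgfrb had 0.07 ± 0.11 (adjusted p = 0.815). Tagln, an actin-binding protein of contractile cells, had 0.81 ± 0.22 (adjusted p = 0.0591). Agtr1a, the angiotensin receptor, had -0.40 ± 0.11 (adjusted p = 0.0592) on its brightest probe set and -0.50 ± 0.13 (adjusted p = 0.0427) on another. For the parietal epithelium of the capsule 0 of 5 passed (2 unadjusted) with a median of 0.07. Cldn1, a tight junction protein, had a dimmer probe set that passed (0.87 ± 0.18, adjusted p = 0.019).

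Cells outside the glomerulus were checked in the same way, beside the 2.34% called lower and 2.14% called higher of all probe sets tested. Of 15 proximal tubule genes, Slc13a3, a dicarboxylate carrier, fell (-0.29 ± 0.06, adjusted p = 0.0166). The median was -0.01. Slc34a1, the phosphate carrier, had -0.01 ± 0.07 on its brightest probe set and -0.34 ± 0.16 (adjusted p = 0.292) on another. Of 12 distal and collecting duct genes, the water channel Aqp2 rose (0.55 ± 0.09, adjusted p = 0.00391). Slc26a4, the pendrin anion exchanger, fell (-0.51, adjusted p = 0.011), and so did Atp6v1b1, a proton pump subunit (-0.37, adjusted p = 0.0431). The median there was 0.00, and Umod had -0.35 ± 0.19 (adjusted p = 0.386).

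Leukocyte and fat markers were checked last, beside the 2.14% of all probe sets tested that were called higher. Of 6 leukocyte genes tested, Csf1r, a macrophage growth factor receptor, rose (0.36 ± 0.09, adjusted p = 0.0453), and the median was 0.30. The summed leukocyte signal was 6676 to 10219 in nondiabetic and 9273 to 13819 in diabetic rats at 20 weeks, and 7640 to 8396 against 8245 to 9354 at 10 weeks. Of 4 fat genes 0 passed in limma (1 unadjusted), but all 4 lay above 0, with a median of 1.01. Fabp4 had 2.83 ± 0.78 (adjusted p = 0.063) and Cidec 1.78 ± 0.89 (adjusted p = 0.328), while Adipoq had 0.24 and Lpl 0.07. The lowest 10-week nondiabetic signals were near the floor, at 1.75 for Fabp4 and 4.49 for Cidec. Fat sums were 1448 to 2474 in nondiabetic and 1895 to 2782 in diabetic rats at 10 weeks, which overlapped, and 1779 to 2211 against 2410 to 3182 at 20 weeks, which did not. The part of these cells in the lower Nphs1, Ptpro and Dach1 signals was not tested.

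**Figure D5:**
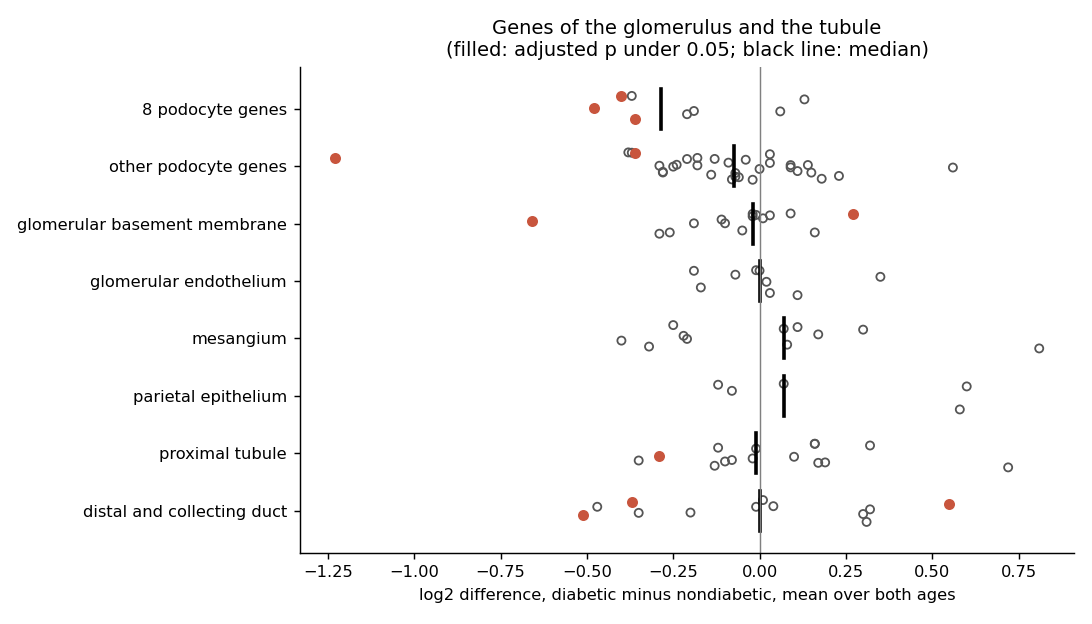
Log2 differences over both ages (horizontal axis, diabetic minus nondiabetic) of each tested gene of the 8 podocyte genes and of 7 other lists of glomerular and tubular genes (rows); filled points have an adjusted p under 0.05 and black lines mark medians. The median of the 8 genes is -0.28, those of the other podocyte genes -0.07 and the basement membrane -0.02, and 3 of the 8 genes are filled.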

How the data were processed

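Cortex RNA of 12 samples was measured on 1-colour arrays. The deposited values are linear probe-set intensity (signal), which the authors made with GCOS per the submitters' processing notes. For the version of GCOS, its summary method and its detection calls, nothing is given in the sources used here. The trimmed mean (2% at each end) was 500.0 on each array, so the deposited table was already scaled. Each difference is therefore relative to the other transcripts. From the deposited intensity, log2 was computed after 424 values below 1 were set to 1. The dimmest 40% of 31042 probe sets (57 control probe sets removed from 31099) (geometric mean under 70.9) were dropped, and 18625 were tested.

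Gene names came from the array annotation, with 9 symbols updated through RefSeq: 20826 probe sets named 1 gene, 436 several and 9780 none. Probe sets with several names were not used to name a gene. Differences were tested with limma 3.58.1 (lmFit, eBayes with an intensity trend) in R 4.3.3, with 4 group means over 12 arrays (8 residual degrees of freedom), two-sided. The mean of the differences at both ages, each age, the interaction and age were tested. The fit was checked on simulated data. Precision is limited by 3 arrays per group. Labels do not tie arrays to rats, and p-values here reflect only how much these samples vary, which may be technical.

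The members and lists were chosen with earlier results of these data known, and no list has a p of its own. Genes named are the 8 members, of each list the 4 genes with the smallest p over both ages plus Kirrel1, Tcf21, Pecam1, Pdgfrb, Slc34a1 and Umod, and the 6 genes most correlated with Nphs1 by either measure. Not all of these are described, and some genes of the rule are not reported here. Alternatives were other scalings, filters, offsets and variance models, array weights, a replicate block, all probe sets of a gene averaged and each array left out. A fit adjusted for the Gapdh ratio and a fit without both doubted arrays were added after the data were seen.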

Additional observations from a re-analysis of the deposited data

Results flagged for a closer look

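The diabetes difference of Cd2ap was near 0 at 10 weeks and above 0 at 20 weeks. All 3 diabetic arrays lay below the nondiabetic mean at 10 weeks and all 3 above it at 20 weeks. The 10-week nondiabetic mean (3945) was raised by replicate 3 (4255), and the 10-week groups overlapped. The interaction, the difference at 10 weeks minus that at 20 weeks, was -0.37 ± 0.12 with an unadjusted p of 0.0102. It did not pass the adjustment over all probe sets (limma, adjusted p = 0.508). The 10-week difference itself was -0.05 ± 0.09. It was 0.06 with arrays centred on their medians and 0.005 without 10-week nondiabetic replicate 3, so no fall at 10 weeks was shown.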

How the results depend on the processing

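Of 23 alternatives, median centring and a fit with no intensity trend left 1 member probe set called over both ages, in place of 3, and 1 other podocyte gene called lower, in place of 2. Leaving out both doubted arrays left 0 members and 1 other podocyte gene. At 20 weeks the called members went from 0 to 1 with quantile normalization, with the dimmest 60% left out and with the Gapdh ratio as a covariate. With each array left out in turn the called members ranged from 1 to 3 over both ages and from 0 to 1 at 20 weeks, the other podocyte genes called lower from 1 to 2, and the member pairs correlated above 0 from 12 to 20. Fewer arrays lower the power of such fits, and otherwise the cause was not tested. Median centring adds a shift of array medians, which differed by -0.11 at 10 weeks and 0.03 at 20 weeks.

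Signs that turned belonged to differences that were not called. They were the Actn4 interaction with quantile normalization (-0.011), and with median centring Cd2ap at 10 weeks (0.06) and the Ptpro interaction (0.027). With the Gapdh covariate, Wt1 with age was -0.06. Without both doubted arrays, Actn4 was -0.016 over both ages and -0.18 at 20 weeks, Synpo 0.006 at 10 weeks, the Ptpro interaction 0.036 and Wt1 with age -0.035. Averaging in dim probe sets gave Podxl 0.16 over both ages and 0.36 at 10 weeks, Nphs1 0.21 at 20 weeks, interactions of -1.20 (Nphs1), -0.93 (Wt1) and -0.54 (Synpo), and Synpo 0.026 with age. With single arrays left out, Actn4 ranged from -0.056 to 0.18 over both ages, -0.12 to 0.32 at 10 weeks, -0.18 to 0.25 at 20 weeks, -0.18 to 0.28 in the interaction and -0.10 to 0.36 with age. Synpo ranged from -0.30 to 0.006 at 10 weeks and -0.091 to 0.22 in the interaction, Cd2ap from -0.081 to 0.005 at 10 weeks, the Ptpro interaction from -0.22 to 0.003, Wt1 with age from -0.077 to 0.13 and Podxl with age from -0.13 to 0.004.

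The labels number the replicates of each group 1 to 3. Deviations of same-numbered arrays correlated between -0.151 and 0.149 in 18 pairs, with 4 over 0.1. Of the 12 arrays, 7 correlated best with an array of their own number, so whether the numbers mark a pairing was not settled. No pairing was used in the main fit. With the replicate block 3 member probe sets were called over both ages and 0 at 10 weeks, 0 at 20 weeks and 0 in the interaction, and the block changed no call of the members.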
